A study of Homo sapiens with 2 samples.

Results

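The genes described here are 10 hypoxia-responsive genes, STC1, ADM, VEGFA, CA9, BNIP3, NDRG1, EGLN3, PDK1, ANKRD37 and HIF1A, out of 25436 gene symbols measured in human embryonic stem cells. They were chosen by name from an FPKM table, with their values in these libraries known, and STC1 and ADM were selected on their large differences between the lines. Their levels and differences are therefore given as a description, with no test. The series belongs to a study of haploid human embryonic stem cells, and the libraries used here are its diploid controls. HuES53 and HuES64 are undifferentiated human embryonic stem cell lines from embryos obtained by in vitro fertilization. Each gave 1 polyadenylated RNA library, so no spread between replicates can be given and a difference holds for these libraries only. No treatment or oxygen level is named in the labels for either line.

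Cells sense oxygen through the hypoxia-inducible factors (HIFs), transcription factors made of an alpha subunit such as HIF1A and the stable partner ARNT. In well-oxygenated cells, prolyl hydroxylases of the EGLN family modify the alpha subunit, the VHL ubiquitin ligase binds it, and the protein is degraded. When oxygen falls the alpha subunit persists, enters the nucleus and binds a short DNA core, ACGTG or GCGTG, near genes for glucose use, blood vessel growth, pH control and mitochondrial turnover. Because HIF1A is controlled mainly at the protein level, its RNA level is not a measure of the pathway's activity. Several members also respond to other signals, such as growth factors, calcium or cell stress.

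Promoter windows, running from 250 bases before to 50 bases after a RefSeq transcription start (GRCh38.p14), were matched by symbol for 7 of the 10 members. STC1, VEGFA and NDRG1 had no entry. The cores ACGTG and GCGTG were searched on both strands, so that CACGT and CACGC are their reverse-strand readings. The palindrome CACGTG, the E-box bound by other transcription factors too, holds ACGTG on each strand. The windows of 4 members are shown for the range of motif content beside level, ADM because its RNA level differed most among the members with a window, and BNIP3, ANKRD37 and CA9 because they hold the ACGTG core at very different RNA levels. Each is written 5′ to 3′ on the gene's strand, with the cores in capitals, and the windows lie at chr11:10304823-10305122 (ADM, plus strand), chr10:131981874-131982173 (BNIP3, minus strand), chr4:185396591-185396890 (ANKRD37, plus strand) and chr9:35673678-35673977 (CA9, plus strand).
ADM: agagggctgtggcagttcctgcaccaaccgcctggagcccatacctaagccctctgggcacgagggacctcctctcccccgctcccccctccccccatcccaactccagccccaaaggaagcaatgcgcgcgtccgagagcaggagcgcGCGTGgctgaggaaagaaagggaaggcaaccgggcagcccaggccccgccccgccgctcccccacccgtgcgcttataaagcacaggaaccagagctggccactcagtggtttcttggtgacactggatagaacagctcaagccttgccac
BNIP3: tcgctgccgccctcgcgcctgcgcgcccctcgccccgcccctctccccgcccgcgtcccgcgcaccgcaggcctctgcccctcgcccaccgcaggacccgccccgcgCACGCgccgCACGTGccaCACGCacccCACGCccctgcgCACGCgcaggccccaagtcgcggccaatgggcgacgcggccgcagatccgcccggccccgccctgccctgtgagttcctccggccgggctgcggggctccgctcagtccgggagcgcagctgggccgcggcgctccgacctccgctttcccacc
ANKRD37: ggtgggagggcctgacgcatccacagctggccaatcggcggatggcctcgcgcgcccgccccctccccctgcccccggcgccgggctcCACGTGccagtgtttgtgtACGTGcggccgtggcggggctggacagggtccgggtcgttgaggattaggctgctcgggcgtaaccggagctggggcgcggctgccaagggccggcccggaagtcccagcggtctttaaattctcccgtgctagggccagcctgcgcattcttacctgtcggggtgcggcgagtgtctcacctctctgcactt
CA9: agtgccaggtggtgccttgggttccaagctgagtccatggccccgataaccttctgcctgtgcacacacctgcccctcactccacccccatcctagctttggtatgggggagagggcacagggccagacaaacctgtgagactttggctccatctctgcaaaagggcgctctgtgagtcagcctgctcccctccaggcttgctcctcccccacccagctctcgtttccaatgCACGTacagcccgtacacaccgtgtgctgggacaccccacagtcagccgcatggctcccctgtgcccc

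The ACGTG core was found in windows of 4 of the 7 members, BNIP3, ANKRD37, CA9 and PDK1. In CA9 it lay 18 bases before the start, and in ANKRD37 the cores began 162 and 143 bases before it. BNIP3 held 1 CACGTG and 4 CACGC readings. PDK1 held CACGT 17 and 8 bases before one of its 2 annotated starts, and none in the window of the other. ADM (101 bases before the start) and HIF1A (204 bases, in 1 of its 2 windows) held GCGTG and no ACGTG, and EGLN3 held neither core in its window. Among all 35116 windows of the RefSeq table, 21.4% held ACGTG, 36.5% held GCGTG and 48.4% held at least one of them. Among the 13682 windows of tested genes the shares were 25.2%, 48.4% and 60.4%. Counted in the same way, the 7 members have 9 windows, of which 44.4% (4 of 9) held ACGTG, 33.3% (3 of 9) held GCGTG and 66.7% (6 of 9) held at least one. The windows of ADM and EGLN3 are each 65% GC, that of BNIP3 80.7%, that of ANKRD37 69.7% and that of CA9 62.0%, against a median of 58.7% over all windows and of 65% over those of tested genes, which equals the median of the members' own 9 windows. A match is a string of letters and not a measured binding site.

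The members covered a wide range of levels in each line (FPKM, which is scaled by transcript length and can be compared between genes). In HuES53 the order was HIF1A (75.9 FPKM), BNIP3 (54.7 FPKM), STC1 (48.1 FPKM), ADM (38.4 FPKM), VEGFA (34.2 FPKM), EGLN3 (18.7 FPKM), PDK1 (6.98 FPKM), NDRG1 (4.45 FPKM), ANKRD37 (2.07 FPKM) and CA9 (0.907 FPKM). In HuES64 ADM led at 101 FPKM, ahead of HIF1A, BNIP3, VEGFA, EGLN3 and PDK1, and STC1 was the seventh. The 3 lowest members, NDRG1, ANKRD37 and CA9, kept the same order in both lines. The order within the middle of the range cannot be held against any replicate spread. The presence of ACGTG in the windows shown above went with levels as far apart as those of BNIP3 and CA9.

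**Figure D1:**
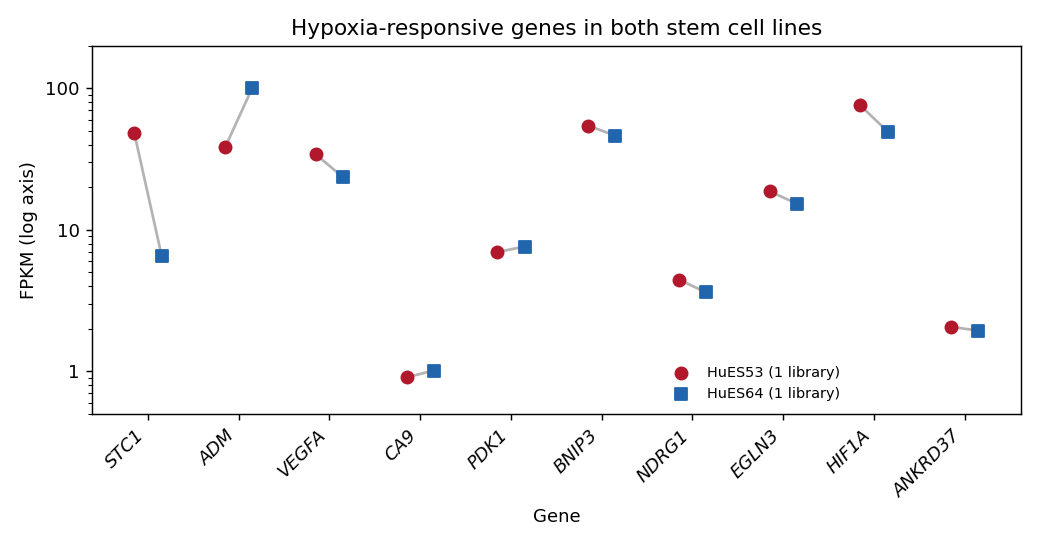
FPKM of each member on a log axis, with a circle for the HuES53 library and a square for the HuES64 library, joined by a grey line. STC1 and ADM have steep lines in opposite directions, while the other 8 members change little between the lines.

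Each difference is the value of log2(FPKM + 1) in HuES53 less the value in HuES64, taken for genes whose mean over the lines was 1 FPKM or more. Folds are on the same scale, where the added 1 FPKM makes them smaller than the plain ratio for low genes. A total of 13790 genes passed that minimum, and 9 of the 10 members did, all but CA9. Among these 9 members, 1 was higher in HuES53 by 2-fold or more (STC1), where 2.15% of all tested genes were. Likewise 1 was higher in HuES64 by that size (ADM), where 1.70% of all tested genes were. STC1 also passed 4-fold, as did 0.435% of the tested genes. With TPM scaling, which divides each value by its library's sum, HuES53 was the higher line for 79.5% of the 2-fold genes over the table, and for 55.8% with FPKM as deposited, while STC1 and ADM stayed on their own sides. At any size, 7 of the 9 members were higher in HuES53 and 2 in HuES64, ADM and PDK1, beside 52.5% of all tested genes higher in HuES53 and 47.5% higher in HuES64. The median difference of the 9 members was 0.24, and that of all tested genes was 0.03. The members were chosen on this contrast, so these counts carry no weight of their own.

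STC1 encodes stanniocalcin-1, a secreted glycoprotein hormone first known for calcium and phosphate balance and induced by hypoxia in several human cell types. It stood at 48.1 FPKM in HuES53 and 6.58 FPKM in HuES64. The plain ratio was 7.31 and the difference was 2.70 on the log2 scale (6.48-fold). In that direction it had rank 44 among the 13790 tested genes. In HuES53 the gene lay above 91.6% of all symbols in level, and in HuES64 above 66.6%. Its locus spans bases 23699434 to 23712320 of chromosome 8, in the deposited table's own build, and it overlaps no other gene there. STC2, its paralog and a target of the unfolded protein response and of HIF, stood at 48.5 FPKM in HuES53 and 35.1 FPKM in HuES64, a difference of 0.46. The paralogs stood nearly level in HuES53, while STC2 was the higher in HuES64.

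ADM encodes adrenomedullin, a secreted peptide that widens blood vessels and is among the most widely induced HIF target genes. It stood at 38.4 FPKM in HuES53 and 101 FPKM in HuES64, the opposite direction to STC1. The difference was -1.38, so that ADM was 2.59-fold higher in HuES64, with rank 120 among the tested genes in that direction. STC1 exceeded ADM by a ratio of 1.25 in HuES53, and ADM exceeded STC1 by a ratio of 15.4 in HuES64. Adrenomedullin signals through the receptor CALCRL joined to an accessory protein of the RAMP family. RAMP2, a partner that gives the receptor a preference for adrenomedullin, stood at 11.9 FPKM in HuES53 and 25.7 FPKM in HuES64, a difference of -1.05. Its locus overlaps another gene in the table, so its fragments may not all be its own. CALCRL itself was low, at 0.521 FPKM in HuES53 and 0.176 FPKM in HuES64, and RAMP1 and RAMP3 were each under 1.5 FPKM. ADM2, the paralogous peptide, was level at 7.22 FPKM in HuES53 and 7.31 FPKM in HuES64.

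VEGFA encodes the main growth factor for blood vessel endothelium. It stood at 34.2 FPKM in HuES53 and 23.5 FPKM in HuES64, a difference of 0.52 (1.43-fold), under the 2-fold size. Its receptor KDR stood at 27.6 FPKM in HuES53 and 17.6 FPKM in HuES64 (0.62), and FLT1, the receptor that binds VEGFA more tightly and signals less, at 24.5 FPKM and 22.4 FPKM in the same order. Its relatives were split. VEGFB stood at 32.8 FPKM in HuES53 and 47.8 FPKM in HuES64 (-0.53), and PGF, placental growth factor, at 3.74 FPKM and 5.76 FPKM. VEGFC, which acts mainly on lymphatic vessels, was scarce and leaned to HuES53, at 0.880 FPKM and 0.659 FPKM in HuES64, and FIGF was nearly absent (0.0572 FPKM in HuES53, while HuES64 lists it at 0). Of 9 endothelium and blood markers 2 reached 1 FPKM in each line, and PECAM1, which endothelial cells express strongly, stood at 0.0501 FPKM in HuES53 and 0.0459 FPKM in HuES64.

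Of the other secreted products of HIF target genes, most that passed the minimum leaned to HuES64, as ADM did. The secreted members STC1 (2.70) and VEGFA (0.52) leaned to HuES53. Of 13 listed genes, 8 passed the minimum. Of these, 6 were higher in HuES64, where 47.5% of all tested genes were, and 2 in HuES53. The median of the 8 was -0.87, beside 0.03 for all tested genes. Over all 13, with 5 genes that were scarce in both lines, the median was -0.029. MIF, a cytokine, stood at 987 FPKM in HuES53 and 1977 FPKM in HuES64 (-1.001), the only listed gene past 2-fold, and its locus overlaps another gene. EDN1, which encodes the vessel-constricting peptide endothelin-1, stood at 6.40 FPKM in HuES53 and 13.7 FPKM in HuES64 (-0.99). ANGPTL4 (-0.92), a regulator of lipoprotein lipase, and PDGFB (-0.88), a growth factor chain, also sat just under 2-fold. IGFBP3, which binds insulin-like growth factors, was the counterpart, at 12.6 FPKM in HuES53 and 6.10 FPKM in HuES64 (0.94), and STC2 was the other gene on that side. EDN1 and PDGFB also respond to TGF-beta, serum or cell adhesion signals. Markers of fibroblasts and mesenchyme had a summed level of 1361 FPKM in HuES53 and 1828 FPKM in HuES64 over 12 genes, 10 of which reached 1 FPKM in each line and none of which was listed at 0. Of 10 tested markers 7 were higher in HuES64, where 47.5% of all tested genes were, and 3 in HuES53. Those 3 were PDGFRA (0.56), COL1A2 (0.50) and THY1. DCN and POSTN were under 1 FPKM in each line. Most of the gap in the sum was TAGLN, a smooth muscle and fibroblast gene, at 779 FPKM in HuES53 and 1165 FPKM in HuES64. THY1, the next highest, stood at 243 FPKM in HuES53 and 227 FPKM in HuES64. Their part in the result was not tested. In bulk RNA, more cells of a type and more RNA per cell cannot be told apart.

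CA9 and PDK1 stand for pH control and for the shift of carbon away from oxidation in mitochondria. CA9 encodes carbonic anhydrase 9, a surface enzyme that is one of the most oxygen-sensitive HIF targets in epithelial tumours. It stood at 0.907 FPKM in HuES53 and 1.01 FPKM in HuES64, under the minimum used for the other members. At the depth estimated below that amounts to about 16.8 fragments per kilobase in HuES53 and 15.4 in HuES64, so a small difference was not detectable. CA14, another membrane-bound carbonic anhydrase, was far higher, at 31.5 FPKM in HuES53 and 41.1 FPKM in HuES64, and the cytosolic CA2 stood at 14.6 FPKM and 7.93 FPKM (0.81). SLC16A1 and BSG, a lactate transporter and its chaperone, were high in both lines, at 247 and 683 FPKM in HuES53 and 215 and 866 FPKM in HuES64. Over the 9 genes of pH and lactate handling, 8 passed the minimum. None of the 8 reached 2-fold, where 3.86% of all tested genes did in either direction. The bicarbonate transporter gene SLC4A7 stood at 18.1 FPKM in HuES53 and 13.3 FPKM in HuES64 (0.43).

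PDK1 here is pyruvate dehydrogenase kinase 1, which switches off pyruvate dehydrogenase and so limits the oxidation of pyruvate in the mitochondrion. It stood at 6.98 FPKM in HuES53 and 7.62 FPKM in HuES64, a difference of -0.11. With TPM scaling PDK1 leaned to HuES53 (0.11). With the trend by GC content and length removed, as described below, it leaned further to HuES64 (-0.32). Its paralog PDK3 leaned to HuES53 (8.29 FPKM, against 6.15 FPKM in HuES64) and PDK2 leaned to HuES64 (6.39 FPKM in HuES53, against 8.47 FPKM in HuES64). PDK4, the form linked to fasting and fat use, was low, at 0.395 FPKM in HuES53 and 0.372 FPKM in HuES64. The enzyme subunits that the kinases act with were nearly level, with PDHB at 148 FPKM in HuES53 and 151 FPKM in HuES64 and PDHA1 at 43.4 FPKM and 48.1 FPKM. BRP44L, the older symbol of the pyruvate carrier gene MPC1, had the largest difference of these 11 tested genes (0.54, with 17.6 FPKM in HuES53 and 11.7 FPKM in HuES64). DLD, a subunit of the complex, leaned the same way (43.6 FPKM in HuES53 and 36.5 FPKM in HuES64, 0.25). None of the 11 reached 2-fold, where 3.86% of all tested genes did in either direction.

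BNIP3 encodes a protein of the outer mitochondrial membrane that marks mitochondria for removal by autophagy. It was among the highest members in each line, at 54.7 FPKM in HuES53 and 46.4 FPKM in HuES64, a difference of 0.23. Its paralog BNIP3L was lower and leaned the same way, at 21.3 FPKM in HuES53 and 18.1 FPKM in HuES64 (0.22). FAM162A, a mitochondrial HIF target gene, stood at 102 FPKM in HuES53 and 104 FPKM in HuES64. COX4I1, the usual form of a cytochrome c oxidase subunit, stood at 465 FPKM in HuES53 and 682 FPKM in HuES64 (-0.55), while COX4I2, the form induced by low oxygen, was scarce (0.224 FPKM in HuES53, while HuES64 lists it at 0). Of 9 tested genes in this mitochondrial group none reached 2-fold, where 3.86% of all tested genes did in either direction. The median of the group was 0.06. The mitochondrial protease gene LONP1 leaned to HuES64 (51.9 FPKM in HuES53 and 70.5 FPKM in HuES64, -0.43), as did the autophagy receptor gene SQSTM1 (58.1 FPKM and 65.9 FPKM, -0.18), which overlaps other genes. PINK1, a kinase that marks damaged mitochondria, leaned to HuES53 (30.7 FPKM in HuES53 and 26.0 FPKM in HuES64, 0.23).

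HIF1A was the highest member in HuES53 and the next after ADM in HuES64. It stood at 75.9 FPKM in HuES53 and 49.6 FPKM in HuES64, a difference of 0.60 (1.52-fold). EPAS1, which encodes the alpha subunit HIF-2alpha, was scarce, at 1.56 FPKM in HuES53 and 0.935 FPKM in HuES64, so that HIF1A RNA dominated the alpha subunits in both lines. ARNT, the shared partner, leaned with HIF1A (12.0 FPKM in HuES53 and 8.26 FPKM in HuES64, 0.49). HIF3A, whose products can restrain the pathway, leaned slightly to HuES64, at 5.86 FPKM in HuES53 and 6.87 FPKM in HuES64. EP300, a coactivator recruited by HIF1A, stood at 19.8 FPKM in HuES53 and 12.4 FPKM in HuES64 (0.63). CITED2, which competes with HIF1A for that coactivator, leaned to HuES64, at 18.6 FPKM in HuES53 and 27.9 FPKM in HuES64 (-0.56), as did its relative CITED4 (-0.51, with 7.95 FPKM in HuES53 and 11.8 FPKM in HuES64).

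EGLN3 is both a HIF target and one of the oxygen sensors. It stood at 18.7 FPKM in HuES53 and 15.3 FPKM in HuES64, a difference of 0.27. EGLN2 was the most abundant of the family at 41.8 FPKM in HuES53 and 50.3 FPKM in HuES64, although it shares its locus with a read-through gene. EGLN1, the main regulator of HIF1A in most cells and itself a HIF target, was the lowest, at 3.10 FPKM in HuES53 and 1.58 FPKM in HuES64 (0.67). The order EGLN2, EGLN3, EGLN1 held in both lines. VHL stood at 18.2 FPKM in HuES53 and 15.4 FPKM in HuES64, and the adaptor gene TCEB2 at 307 FPKM and 469 FPKM (-0.61). RBX1, another subunit of the VHL ligase, stood at 123 FPKM in HuES53 and 173 FPKM in HuES64 (-0.49), and OS9 at 52.2 FPKM and 59.9 FPKM (-0.20). All 14 genes of oxygen sensing and HIF turnover passed the minimum, and 7 leaned to each line. None of the 14 reached 2-fold, where 3.86% of all tested genes did in either direction.

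NDRG1 and ANKRD37 were low and nearly level. NDRG1 encodes a cytoplasmic protein induced by hypoxia, metals and differentiation, and it stood at 4.45 FPKM in HuES53 and 3.62 FPKM in HuES64, a difference of 0.24. Its relatives were higher in each line, with NDRG3 at 13.8 FPKM in HuES53 and 14.7 FPKM in HuES64 and NDRG4 at 14.5 FPKM and 10.2 FPKM. ANKRD37 encodes a small ankyrin repeat protein, and its window above holds ACGTG cores. It stood at 2.07 FPKM in HuES53 and 1.94 FPKM in HuES64, a difference of 0.06. Its locus overlaps UFSP2, the only overlap among the 10 members, and whether strand was used in assigning fragments is not given in the sources used here.

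Outside the members, the genes of the pathway lists reached 2-fold at a share near that of all tested genes. These lists hold receptors, paralogs and enzyme subunits as well as hypoxia-induced genes. The 11 pathway lists held 140 further genes, of which 125 passed the minimum. The 2-fold size was reached by 2 of them in HuES53 (CXCR4 and PLOD2) and by 2 in HuES64 (MIF and RAMP2), or 3.20%, beside 3.86% of all tested genes in either direction. The 22 glycolytic genes had a median of -0.04, with GAPDH at 2219 FPKM in HuES53 and 2670 FPKM in HuES64, ENO1 (enolase, whose locus overlaps an antisense gene) at 1130 FPKM and 1312 FPKM, and PKM2 (pyruvate kinase) at 1089 FPKM and 1112 FPKM. The hexokinase genes HK2 (0.60) and HK1 (0.50, with 188 FPKM in HuES53 and 132 FPKM in HuES64) and ALDOC (-0.49), an aldolase gene, had the largest differences among them. The 29 other hypoxia-induced genes had a median of 0.25, beside 0.03 for all tested genes. Their median was 0.13 with the trend by GC content and length removed, as described below. Of these genes 18 leaned to HuES53, beside 52.5% of all tested genes. They were led by the chemokine receptor gene CXCR4 (68.1 FPKM in HuES53 and 26.3 FPKM in HuES64, 1.34), the collagen lysyl hydroxylase gene PLOD2 (30.8 FPKM and 14.7 FPKM, 1.02) and the adenylate kinase gene AK4 (26.2 FPKM and 13.9 FPKM, 0.87). DDIT4, an inhibitor of mTOR, stood at 99.3 FPKM in HuES53 and 62.8 FPKM in HuES64 (0.65). PLIN2, which coats lipid droplets, and PLOD1, another lysyl hydroxylase gene, were level (-0.04 and -0.08), at 59.8 and 58.3 FPKM in HuES53 and 61.6 and 61.5 FPKM in HuES64. CXCR4 also marks early endoderm, and the 8 early endoderm and mesoderm markers had a summed level of 593 FPKM in HuES53 and 139 FPKM in HuES64, most of it CER1 (543 FPKM in HuES53 and 104 FPKM in HuES64), with none listed at 0. Of 7 tested markers 6 leaned to HuES53, beside 52.5% of all tested genes. Past 2-fold in HuES53 were 3 of the 7, where 2.15% of all tested genes were. These were CER1 (2.38), AFP (1.71, with 7.25 FPKM in HuES53 and 1.53 FPKM in HuES64) and MIXL1 (1.15, with 6.84 FPKM and 2.52 FPKM). FOXA2 stood at 11.9 FPKM in HuES53 and 9.26 FPKM in HuES64, while SOX17 leaned to HuES64 (6.89 FPKM in HuES53 and 10.6 FPKM in HuES64). The gene lists were chosen with earlier results of these data known, so these counts carry no weight of their own. The part of these markers in the difference of STC1 was not tested.

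**Figure D2:**
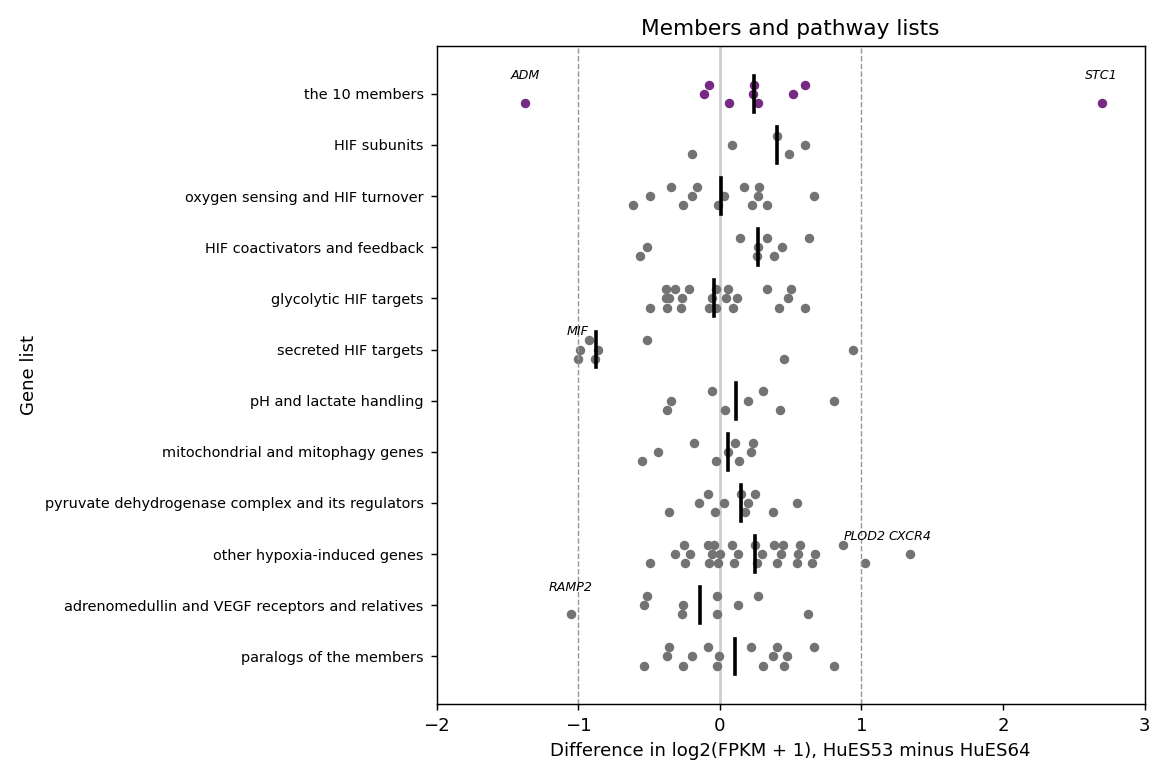
Difference in log2(FPKM + 1), HuES53 minus HuES64, for the 10 members and for the tested genes of each pathway list, 1 point per gene, with a black bar at the median of those whose mean was 1 FPKM or more and dashed lines at 2-fold. STC1 and ADM lie outside the dashed lines, the secreted HIF targets lie mostly near -0.87, and the medians of the other lists lie between -0.14 and 0.40.

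Over all genes the difference depended on the GC content of the transcripts. With tested genes in 10 equal groups by GC content, the group lowest in GC had a median of 0.30 and the highest had -0.31. Some members lay on the side of this trend and others ran against it. HIF1A (39.2% GC) lay in the lowest group, and its difference of 0.60 was 0.38 once the trend with GC content and length was removed. STC1 (43.9% GC) lay in a group with a median of 0.22, and its difference was 2.38 after removal. ADM (59.4% GC) lay in a group with a median of -0.22, and its difference was -1.13 after removal, still past 2-fold. VEGFA (57.2% GC) ran against its group, which had a median of -0.14, and its difference was 0.73 after removal. BNIP3 (0.23, group median -0.09), NDRG1 (0.24, group median -0.14), ANKRD37 (0.06, group median -0.09) and PDK1 (-0.11, group median 0.22) also ran against their groups. EGLN3 (0.27) lay on the side of its group, which had a median of 0.09. Of the pathway genes named here, EDN1 (-1.24), IGFBP3 (1.04), DDIT4 (1.02) and CXCR4 (1.13) were past 2-fold after removal, while MIF (-0.72), RAMP2 (-0.91) and PLOD2 (0.72) were under it. ANGPTL4 and PDGFB, both rich in GC, stood at -0.58 and -0.59. Some smaller differences changed sign with removal, such as HIF3A (-0.20 before, 0.12 after), SQSTM1 (-0.18 before, 0.06 after), VHL (0.23 before, -0.07 after) and EGLN2 (-0.26 before, 0.01 after). KDR (0.22), EGLN1 (0.27) and DLD (0.03) were smaller after removal, while CITED2 (-0.63) and RBX1 (-0.64) were not. The median of the secreted list was -0.58 after removal.

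**Figure D3:**
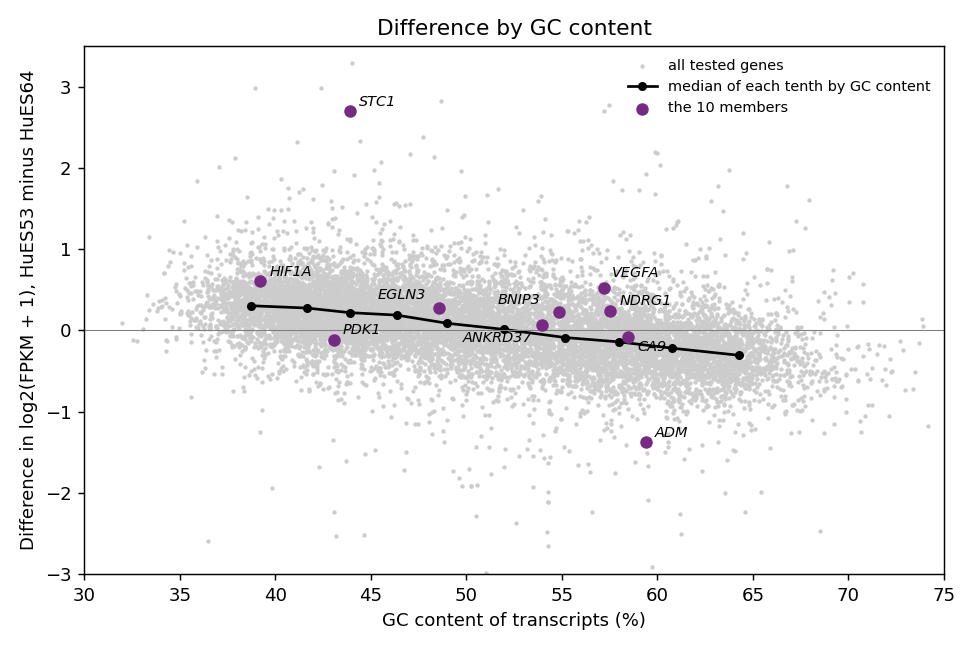
Difference in log2(FPKM + 1), HuES53 minus HuES64, against the GC content of each gene's transcripts in percent, with grey points for tested genes, a black line through the medians of 10 equal groups by GC content and purple points for the 10 members (45 tested genes lie outside the axes). STC1 lies far above the line and ADM far below it, and the other members lie nearer to it.

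As a check of the label, all 10 markers of pluripotent cells reached 1 FPKM in both lines, among them POU5F1 at 1053 FPKM in HuES53 and 1381 FPKM in HuES64 and TDGF1 at 723 FPKM and 528 FPKM. Summed levels of the other marker lists were 8.18 FPKM in HuES53 and 6.90 FPKM in HuES64 for endothelium and blood (TEK and TIE1 highest), 27.0 FPKM and 16.5 FPKM for trophoblast (IGFBP3 and KRT7 highest), and 333 FPKM and 357 FPKM for neuroectoderm, mostly TUBB3 and NES. Listed at 0 in HuES64 were 3 endothelium and blood genes and 1 trophoblast gene, and 1 neuroectoderm gene was listed at 0 in HuES53. The table holds no counts. The most often repeated step among values of short olfactory receptor genes, shared by 8 values in HuES53 and 3 in HuES64, was taken as 1 fragment. That put 1 FPKM over 1 kb at 18.6 fragments in HuES53 and 15.2 in HuES64, a depth ratio of 1.22. Fragments are taken here to average 200 bases, and the step in HuES64 rests on few values.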

How the data were processed

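RNA was sequenced from 2 human embryonic stem cell lines, 1 library each, after poly(A) selection and an Illumina TruSeq preparation, per the labels' protocols. Tools listed in the submitters' processing notes are Cufflinks 2.0.2 and TopHat2 2.0.4, with no role stated. The build, annotation, strand setting and read filters were not given in the sources used here. Expression was deposited as FPKM (fragments scaled by transcript length and by mapped fragments), in a single table of 25593 rows. The 136 rows of chromosome Y were left out, and rows sharing a symbol (21 symbols) were summed.

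The difference is log2(FPKM + 1), HuES53 minus HuES64, for genes averaging 1 FPKM or more. With 1 library per line there is no replicate error and no p-value. The 10 members and the gene lists were chosen with earlier results of these data known. Of each pathway list the text names the 3 highest genes, the 3 with the largest differences and any at 2-fold or more, and of each marker list the 2 highest genes. One list gene that this rule would name is not reported here. Other list genes were named after their values were seen, many of them to give paralogs, receptors and partners of the members. Further genes outside the rule, such as ANGPTL4, PDGFB, COX4I2, PECAM1, SOX17, AFP and MIXL1, were also named with their values known. Start positions count from 0 in the table (1260 of 1299 microRNA loci have the RefSeq length on that reading) and are printed counting from 1.

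GC content and length are medians over a symbol's GENCODE 29 transcripts, matched for 86.4% of tested genes. The trend was removed by subtracting medians over 20 bins of each in 5 rounds. Depth steps came from olfactory receptor loci under 1100 bases. Of values under 6 steps, 16 of 19 in HuES53 and 8 of 11 in HuES64 were whole within 3%. These include the 8 values in HuES53 and 3 in HuES64 that set the step, which are whole by construction. This depth depends on the assumed fragment length and covers counting error only. The calculation was tested on simulated data. Python 3.11.15, pandas 2.3.3, NumPy 2.4.6 and matplotlib 3.10.9 were used.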

Additional observations from a re-analysis of the deposited data

How the results depend on the processing

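STC1 and ADM kept their direction and stayed past 2-fold under each of the 7 alternatives run on single genes (pseudocounts of 0.1 and 0.5 FPKM, TPM, upper quartile and median of ratios scaling, the highest row of a repeated symbol, and removal of the GC and length trend). STC1 ranged from 2.38 to 2.99 and ADM from -1.41 to -1.13. No other member reached 2-fold under them, HIF1A coming nearest at 0.85. With TPM scaling, which moved the median of all genes by 0.23, CA9 (0.053) and PDK1 (0.11) changed sign. Over the table, the genes at least 2-fold higher in HuES53 numbered 297, or 585 with a pseudocount of 0.1 FPKM, 161 among genes averaging 5 FPKM or more and 774 with TPM scaling. Those higher in HuES64 numbered 235, or 405 with a pseudocount of 0.1 FPKM, 141 with the trend removed and 142 without overlapping loci. Pathway list medians near 0 changed sign. That of oxygen sensing was -0.012 among genes averaging 5 FPKM or more, -0.0046 with upper quartile scaling, -0.020 with median of ratios scaling, -0.034 with the trend removed and -0.012 without overlapping loci. Glycolysis reached 0.20 with TPM scaling. The receptor list reached 0.032 with no filter, 0.17 with TPM scaling and 0.0031 with the trend removed. With the trend removed the mitochondrial list stood at -0.066 and the pyruvate dehydrogenase list at -0.079, and among genes averaging 5 FPKM or more the paralogs stood at -0.016. The secreted list kept its sign, from -0.92 with a pseudocount of 0.1 FPKM to -0.029 with no filter. The cause of these changes was not tested. The other 98 list values kept their sign. No paired analysis was possible because each line has 1 library. The lowest members, CA9 and ANKRD37, rest on few fragments.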

Other observations

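Expressed neighbours of the members that differed most were read from the deposited loci, as the nearest 3 genes on each side with a mean of at least 1 FPKM, a choice made after the values were seen. Around STC1, NEFM, a neurofilament gene 1059 kb away, was the 1 neighbour past 2-fold, at 7.42 FPKM in HuES53 and 2.25 FPKM in HuES64 (1.37). NEFL, another neurofilament gene, stood at 7.22 FPKM in HuES53 and 4.39 FPKM in HuES64 (0.61). DOCK5, farther on the same side, stood at 2.35 FPKM in HuES53 and 0.998 FPKM in HuES64 (0.74). On the other side SLC25A37, which encodes a mitochondrial iron importer, stood at 12.9 FPKM in HuES53 and 14.3 FPKM in HuES64 (-0.14), and LOXL2, a lysyl oxidase family gene, at 27.7 FPKM and 32.3 FPKM (-0.21), while ENTPD4 leaned to HuES53 (9.98 FPKM in HuES53 and 6.64 FPKM in HuES64, 0.52). Around ADM no neighbour reached 2-fold. SBF2, the nearest, stood at 7.53 FPKM in HuES53 and 5.37 FPKM in HuES64 (0.42), and RNF141 stood at 14.0 FPKM and 10.2 FPKM (0.43), both in the direction opposite to ADM. SWAP70 (0.32), LOC283104 (0.30) and AMPD3 (0.17) also leaned to HuES53, and MRVI1 was level (-0.02).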
